A study of Mus musculus with 12 samples.

Results

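Collagens are extracellular proteins made of 3 chains wound into a triple helix, and each chain is encoded by a gene of its own. The collagen genes other than those of collagen V were followed here in cultured mouse mesenchymal stromal cells (MSCs). The members were all genes of the expression table whose symbol has the form Col, a number, a and a number, with Col5a1, Col5a2 and Col5a3 left out: 44 of 55401 genes had such a symbol and 41 remained. By class they comprised 8 fibrillar chains, 8 chains of basement membranes, 9 FACIT chains (fibril-associated collagens with interrupted triple helices), 10 chains of networks and microfibrils, 4 transmembrane chains and 2 others. Of the 41 genes, 16 passed the filter for testing, which asked for at least 1 FPKM (fragments per kilobase of exon, scaled to the depth of the library) in at least 3 of the 12 libraries. These were 5 fibrillar, 4 basement membrane, 5 network and 2 FACIT genes. Col27a1 passed only through the groups that received TGF-β1.

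The MSCs came from the bone marrow of C57BL/6 mice, from a commercial supplier, and were cultured in 4 groups with 3 libraries each. The groups were MSCs without treatment, MSCs with TGF-β1 at 5 ng/mL, and MSCs with the same TGF-β1 plus the supernatant of either M-MDSCs or G-MDSCs. These are the monocytic and the granulocytic subset of myeloid-derived suppressor cells, sorted myeloid cells that restrain immune responses, and the supernatant was medium that such cells had conditioned. The dose of TGF-β1, a treatment of 24 h and a density of 500000 MDSCs per mL for the supernatants are those of the methods for cell assays, as the labels of the libraries give none of them. All 4 groups were MSCs of 1 strain, no group received a supernatant without TGF-β1, and the labels do not say whether the libraries of a group came from separate cultures, so the p-values measure only the spread between these libraries. TGF-β1 is a cytokine that drives fibroblasts and MSCs toward myofibroblasts, cells that contract and deposit collagen.

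In fibrillar collagens the triple helix runs almost unbroken and the molecules pack side by side into fibrils. Collagen IV instead forms the sheet under epithelia and around vessels, FACIT collagens sit on the surface of fibrils, collagen VI makes beaded microfibrils and collagen VII makes the anchoring fibrils that fasten the basement membrane of the skin. In fibrosis the fibrillar collagens I and III are the classical components of scar tissue.

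By exon structure the fibrillar genes stood apart from the basement membrane and network genes. Exons of exactly 54 bases were counted in the longest coding transcript of each gene in GENCODE M21. Like several other lengths, 54 bases code for a whole number of Gly-X-Y triplets. Exons of 54 bases made up 41.18% to 55.0% of the exons of the 8 fibrillar genes, with a median of 46.6%. The share was 2.08% to 7.32% in the 8 basement membrane genes, 0.0% to 8.57% in the network genes and 5.56% to 13.79% in the transmembrane genes, while the FACIT genes, at 6.06% to 43.75%, reached into the fibrillar range. Col4a1 and Col4a2 on chromosome 8 lie head to head and overlap by 22 bases at their starts (GRCm38, chr8:11198423-11312826 and chr8:11312805-11449287). Col4a6 and Col4a5 on chromosome X are also head to head, 1308 bases apart, and so are Col4a4 and Col4a3 on chromosome 1, 71 bases apart. Col18a1 overlaps Slc19a1 on the opposite strand but shares 0 exon bases with it. Where the counting did not use strand, reads from overlapping genes cannot be told apart.

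The 250 bases before the start are shown as examples for 3 genes that were higher with TGF-β1 and for Col8a1, which was lower. In these the RefSeq start was also the start of the gene in the expression table, as it was for Col11a1, Col16a1, Col4a1, Col4a2 and 1 of the 2 starts of Col6a2, which are not shown. They were taken from RefSeq (GRCm38.p6), 5′ to 3′ on the strand of the gene. They lie at chr1:45311288-45311537 on the plus strand for Col3a1, chr9:108953336-108953585 on the plus strand for Col7a1, chr1:90843972-90844221 on the minus strand for Col6a3 and chr16:57754738-57754987 on the minus strand for Col8a1. Capitals mark, on either strand, CAGAC as the core of SMAD motifs, GGGCGG as the GC box, CCAAT as the box of that name, TATAAA as the TATA box, TGANTCA as the AP-1 motif and CATTCC as the TEAD motif.
Col3a1: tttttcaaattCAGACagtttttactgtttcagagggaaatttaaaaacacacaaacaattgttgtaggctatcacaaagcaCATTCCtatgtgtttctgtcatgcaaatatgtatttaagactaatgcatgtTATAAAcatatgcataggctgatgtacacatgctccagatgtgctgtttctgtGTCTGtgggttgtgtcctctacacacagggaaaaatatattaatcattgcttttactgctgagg
Col7a1: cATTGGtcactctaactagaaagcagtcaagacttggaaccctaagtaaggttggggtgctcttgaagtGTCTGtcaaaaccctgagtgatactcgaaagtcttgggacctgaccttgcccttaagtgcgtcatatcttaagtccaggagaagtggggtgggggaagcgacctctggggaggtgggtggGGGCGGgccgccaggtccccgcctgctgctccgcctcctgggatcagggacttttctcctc
Col6a3: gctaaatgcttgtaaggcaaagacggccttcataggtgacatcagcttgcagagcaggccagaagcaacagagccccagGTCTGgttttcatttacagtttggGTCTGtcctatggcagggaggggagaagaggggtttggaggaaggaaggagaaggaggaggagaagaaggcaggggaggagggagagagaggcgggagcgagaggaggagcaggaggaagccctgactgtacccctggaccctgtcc
Col8a1: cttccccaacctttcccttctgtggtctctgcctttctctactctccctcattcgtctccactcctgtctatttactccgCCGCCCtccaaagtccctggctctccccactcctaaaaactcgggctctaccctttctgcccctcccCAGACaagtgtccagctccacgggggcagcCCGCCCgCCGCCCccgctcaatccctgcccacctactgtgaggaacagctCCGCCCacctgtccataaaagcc
CAGAC occurred in all 4 of these stretches, but it occurred in 42.19% of the 32851 stretches of the same length before RefSeq starts, and in 10 of the 14 tested collagen genes with such a stretch, and it was missing before Col16a1, Col4a1, Col4a5 and Col6a1. GGGCGG was present in Col7a1 and Col8a1 and absent from Col3a1 and Col6a3, against 32.74% of all stretches and 10 of the 14 genes. TATAAA was found in Col3a1 alone among the 14 genes and in 12.37% of all stretches. CCAAT stood before 8 of the 14 genes and in 33.85% of all stretches, CATTCC before 3 and in 12.64%, and TGANTCA before 1 and in 6.75%. The stretch before Col3a1 held 35.2% G and C, against a median of 52.4% over all stretches. Such matches describe the letters in these stretches.

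Together the 41 genes took 1.00% ± 0.0246 (SD, n = 3) of all gene counts in MSCs without treatment and 1.76% ± 0.0233 with TGF-β1. The share was 1.56% ± 0.11 in the TGF-β1/M-MDSC supernatant group and 1.52% ± 0.0094 in the TGF-β1/G-MDSC supernatant group. Col1a1 and Col1a2, the 2 chains of collagen I, supplied most of it, and they made up 36.3% and 37.5% of the collagen counts without treatment and 42.8% and 32.0% with TGF-β1. In the TGF-β1/M-MDSC supernatant group the share was 1.68% in replicate 1 and 1.497% and 1.49% in the other two libraries, so replicate 1 lay nearest to the range of TGF-β1 alone, 1.74% to 1.78%. The libraries held 73977669 to 84565450 counts. As the measurements are of bulk RNA, fewer cells of a type and less RNA per cell cannot be told apart.

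**Figure D1:**
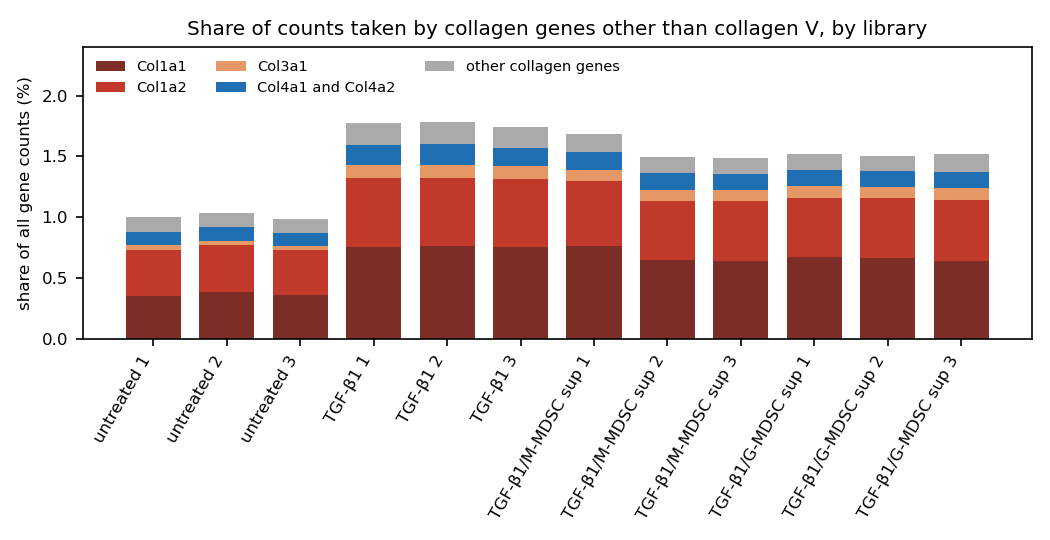
Share of all gene counts (%, stacked) taken by collagen genes other than collagen V in each of the 12 libraries, split into Col1a1, Col1a2, Col3a1, Col4a1 with Col4a2, and the other collagen genes. The 3 libraries without treatment lie at 0.981% to 1.03%, those with TGF-β1 at 1.74% to 1.78%, and those with either supernatant between 1.49% and 1.68%.

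The first comparison asked which collagen genes responded to TGF-β1. Of the 16 genes tested, 13 were higher and 2 lower in TGF-β1-treated MSCs than in MSCs without treatment at an adjusted p under 0.05 (edgeR, Benjamini-Hochberg over 12016 genes), against 16.1% of all genes tested that were higher and 17.9% that were lower. The 13 include Col27a1, which was tested only because the groups with TGF-β1 lifted it over the filter, and without it 12 of 15 genes were higher. Col6a1 did not pass, although its unadjusted p was under 0.05, as it was for all 16 genes and for 42.3% of all genes tested. The median log2 fold change was 0.67 over the 16 genes and 0.0005 over all genes tested. By the rule of the study, which asks for a more than 2-fold change either way and an unadjusted p under 0.05, 6 collagen genes were higher and 1, Col4a5, was lower, against 6.74% of all genes in either direction. The 6 were Col1a1, Col3a1, Col6a3, Col7a1, Col18a1 and Col27a1, or 5 without Col27a1.

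**Figure D2:**
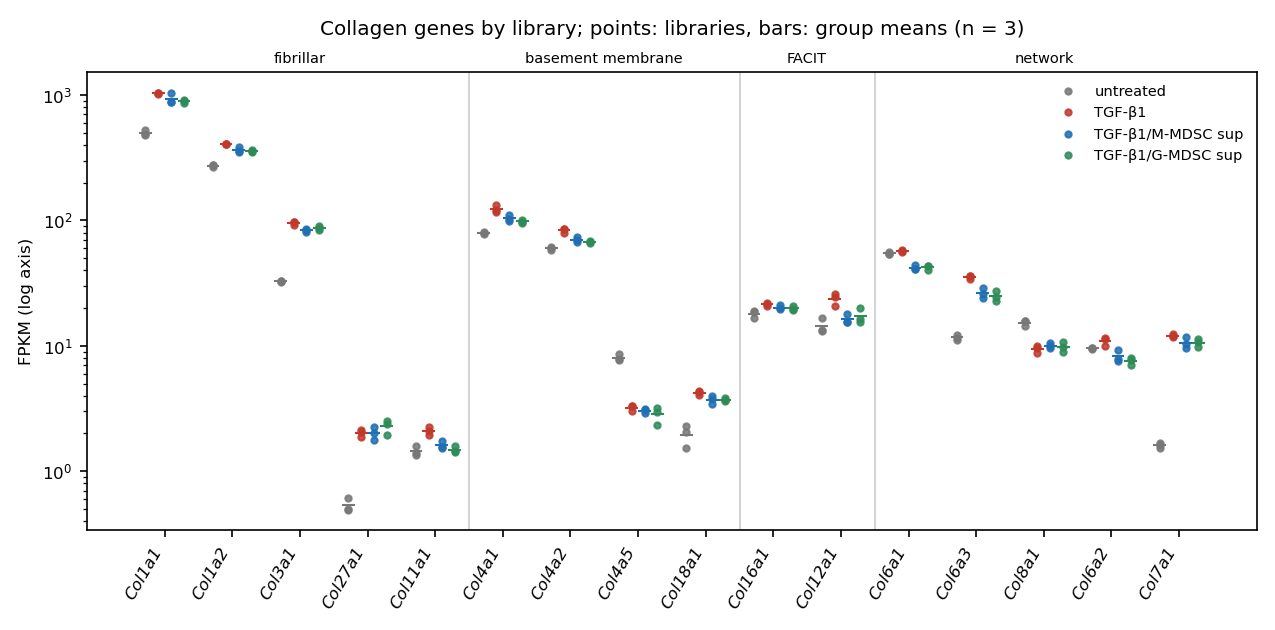
FPKM (log axis) of the 16 tested collagen genes by class, in MSCs without treatment, with TGF-β1 alone, and with TGF-β1 plus M-MDSC or G-MDSC supernatant. Points are libraries and bars group means (n = 3). The points of the TGF-β1 libraries lie above those without treatment for 14 genes and below them for Col4a5 and Col8a1, beside 16.6% of all genes tested whose TGF-β1 libraries all lay above in FPKM and 30% whose libraries all lay below.

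Among the fibrillar collagens the 4 tested genes other than Col27a1 rose with TGF-β1, and Col27a1, which the filter let in through its high groups, was higher as well. Col1a1, which encodes the α1 chain of collagen I, was at 481, 523 and 492 FPKM in the 3 libraries without treatment and at 1032, 1042 and 1026 FPKM with TGF-β1. The groups were far apart, and Col1a1 rose by 1.11 on the log2 scale (SE 0.063, adjusted p = 2.65e-07). Its partner Col1a2, the α2 chain, rose less, from 274, 277 and 265 FPKM to 406, 406 and 409.7 FPKM (log2 fold change 0.64, SE 0.037, adjusted p = 3.10e-07). Col3a1, the single chain of collagen III, which forms thin fibrils together with collagen I, went from 33.01, 32.7 and 32.2 FPKM to 96.8, 97.3 and 91.7 FPKM. That was the smallest adjusted p among the 16 genes (log2 fold change 1.60, SE 0.038, adjusted p = 7.24e-10). Col27a1, a fibrillar chain best known from cartilage, was under 1 FPKM in all libraries without treatment, at 0.615, 0.496 and 0.493 FPKM, and at 2.15, 2.05 and 1.86 FPKM with TGF-β1 (log2 fold change 1.97, SE 0.13, adjusted p = 1.03e-06). Col11a1, a minor chain that is built into fibrils and limits their width, was at 1.598, 1.39 and 1.35 FPKM and at 2.27, 2.11 and 1.93 FPKM in the same groups (log2 fold change 0.60, SE 0.088, adjusted p = 3.67e-04).

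The basement membrane chains split. Col4a1 and Col4a2, the head-to-head pair that forms the common collagen IV molecule, both rose, by 0.69 (adjusted p = 2.93e-06) and 0.53 (adjusted p = 5.73e-06) on the log2 scale. Col4a1 was at 79.3, 80.4 and 78.2 FPKM without treatment and at 121, 132 and 116 FPKM with TGF-β1. Col4a5, a collagen IV chain that is known from the glomerulus and is mutated in Alport syndrome, went the other way. It was at 8.54, 7.92 and 7.72 FPKM without treatment and at 3.31, 3.02 and 3.28 FPKM with TGF-β1, with no overlap (log2 fold change -1.27, SE 0.10, adjusted p = 4.44e-06). Its partner across the shared upstream stretch, Col4a6, did not pass the filter. Col18a1, the source of the fragment endostatin, was at 2.07, 2.27 and 1.53 FPKM without treatment and at 4.36, 4.25 and 4.02 FPKM with TGF-β1 (log2 fold change 1.16, SE 0.12, adjusted p = 3.40e-05).

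The network collagens held both the largest rise and the member that missed the threshold. Col7a1, the only chain of the anchoring fibril, was at 1.69, 1.52 and 1.62 FPKM without treatment and at 12.4, 11.95 and 11.7 FPKM with TGF-β1. Its log2 fold change of 2.95 (SE 0.085, adjusted p = 1.93e-09) was the largest of the 16 genes. The chains of collagen VI did not move alike. Col6a3, the long α3 chain, went from 12.3, 11.6 and 11.1 FPKM to 35.9, 35.98 and 33.96 FPKM (log2 fold change 1.66, SE 0.083, adjusted p = 9.81e-08). Col6a1 was at 53.7, 56.3 and 54.4 FPKM without treatment and at 57.9, 56.5 and 56.8 FPKM with TGF-β1, so the groups did not overlap but lay close together (log2 fold change 0.12, SE 0.045, adjusted p = 0.0722). Col6a2 was at 9.46, 9.59 and 9.65 FPKM and at 11.5, 11.3 and 9.92 FPKM (log2 fold change 0.25, SE 0.086, adjusted p = 0.0458), and this call was lost when any single library of these groups other than TGF-β1 replicate 3 was left out, with adjusted p-values of 0.0929 to 0.142, and under 6 of 12 other settings of scaling, filter and test (adjusted p of 0.0556 to 0.121). Col8a1, a short-chain collagen of vessel walls and of Descemet's membrane in the eye, was lower with TGF-β1, at 9.87, 9.602 and 8.71 FPKM against 15.8, 14.3 and 15.9 FPKM (log2 fold change -0.65, SE 0.077, adjusted p = 6.93e-05).

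Both tested FACIT genes rose. Col12a1, which links fibrils to the matrix around them, was at 16.5, 13.3 and 13.02 FPKM without treatment and at 25.8, 24.5 and 20.9 FPKM with TGF-β1 (log2 fold change 0.79, SE 0.12, adjusted p = 5.14e-04). Col16a1 showed a small change, from 18.9, 18.4 and 16.7 FPKM to 20.8, 21.9 and 21.4 FPKM (log2 fold change 0.30, SE 0.056, adjusted p = 0.00159).

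**Figure D3:**
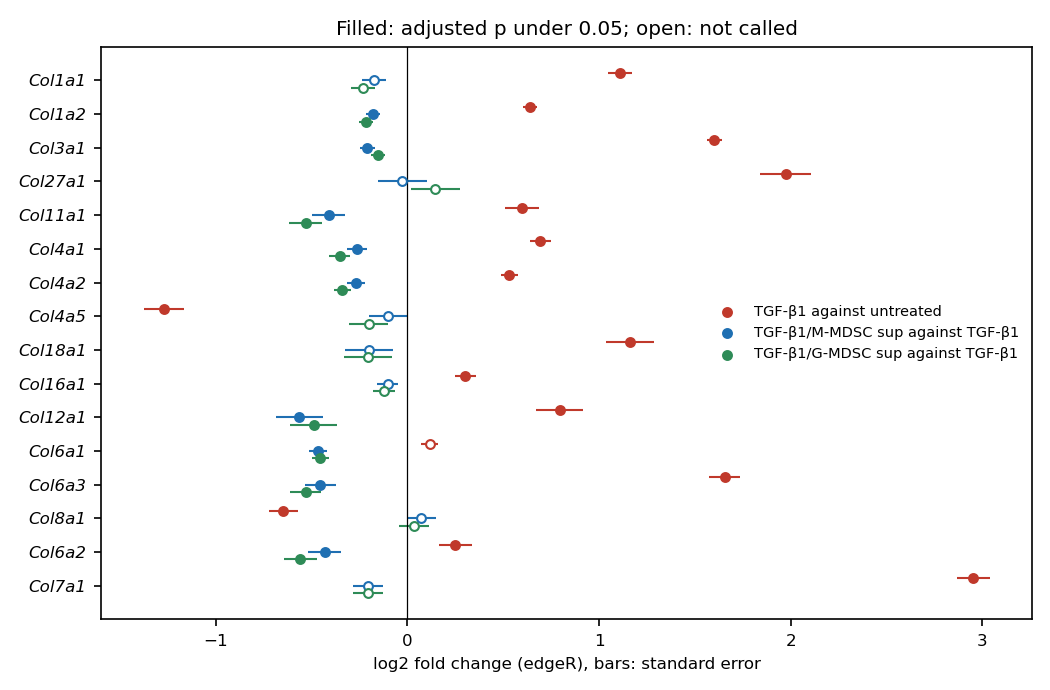
Log2 fold changes (edgeR, bars: standard error) of the 16 tested collagen genes for TGF-β1 against MSCs without treatment and for each supernatant with TGF-β1 against TGF-β1 alone. Filled points have an adjusted p under 0.05. The TGF-β1 points range from -1.27 for Col4a5 to 2.95 for Col7a1, while those of the supernatants lie between -0.56 and 0.15.

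The second question was how the supernatants changed the collagen genes of TGF-β1-treated MSCs. With TGF-β1/M-MDSC supernatant 9 of the 16 genes were lower than with TGF-β1 alone and 0 were higher, against 1.95% and 2.83% of all genes tested. For the G-MDSC supernatant 9 were lower and 0 higher, against 2.46% and 3.1% of all genes. At an unadjusted p under 0.05 the counts were 11 genes in each comparison, against 16.7% of all genes with the M-MDSC and 17.2% with the G-MDSC supernatant, and both comparisons share the TGF-β1 libraries. In each of them the 9 were Col1a2, Col3a1, Col11a1, Col4a1, Col4a2, Col6a1, Col6a2, Col6a3 and Col12a1. The decreases were small: the median log2 fold change of the 16 genes was -0.21 with M-MDSC and -0.22 with G-MDSC supernatant, against -0.0133 and -0.0144 over all genes, and by the rule of the study 0 collagen genes were called in either comparison, against 2.18% and 2.17% of all genes. The count for the M-MDSC supernatant was 5 without TGF-β1 replicate 1, 4 without TGF-β1 replicate 2, 4 without TGF-β1/M-MDSC replicate 2 and 5 without its replicate 3, whereas for the G-MDSC supernatant it stayed at 7 to 8 when any single library was left out. Over all genes tested the share that was lower with the M-MDSC supernatant also fell, to 1.02%, 0.841%, 1.03% and 0.99% in the same order. A fit of only the groups compared gave 3 genes for the M-MDSC supernatant, namely Col6a1, Col6a3 and Col12a1, and 8 for the G-MDSC supernatant, beside 0.782% and 1.29% of all genes that were lower.

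Among the 16 genes, Col6a1 had the smallest adjusted p in both comparisons. Col6a1, the chain that TGF-β1 had not raised past the threshold, was at 43.9, 41.2 and 40.7 FPKM with TGF-β1/M-MDSC supernatant and at 43.6, 40.1 and 43.5 FPKM with TGF-β1/G-MDSC supernatant. All 6 of these libraries lay below the 6 libraries without supernatant, and Col6a1 was lower than with TGF-β1 alone by 0.47 (adjusted p = 9.64e-05) and 0.46 (adjusted p = 1.20e-04) on the log2 scale. It was also lower than in MSCs without treatment, with log2 fold changes of -0.35 (adjusted p = 1.26e-04) and -0.34 (adjusted p = 1.68e-04). Col6a3 fell to 28.9, 25.7 and 23.8 FPKM and 24.4, 22.9 and 27.3 FPKM (log2 fold change -0.45, SE 0.081, adjusted p = 0.0081 for the M-MDSC and log2 fold change -0.53, SE 0.081, adjusted p = 0.00266 for the G-MDSC supernatant), still above all libraries without treatment. Col6a2 was at 9.34, 7.83 and 7.54 FPKM and 7.94, 7.06 and 7.67 FPKM, with log2 fold changes against TGF-β1 of -0.43 (adjusted p = 0.0164) and -0.56 (adjusted p = 0.00296). The calls for Col6a1 and Col6a3 in the M-MDSC comparison held when any single library was left out, and that for Col6a2 was lost without TGF-β1 replicate 1 or 2 or without TGF-β1/M-MDSC replicate 2 or 3 (adjusted p of 0.0676 to 0.0718) and in a fit of only the groups compared (0.104).

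The chains of collagen I lay near the threshold. Col1a1 was at 1039, 881 and 873 FPKM with TGF-β1/M-MDSC supernatant, and its first replicate lay within the range of TGF-β1 alone whereas the other two lay below it. The difference from TGF-β1 alone did not pass (log2 fold change -0.17, SE 0.062, adjusted p = 0.182). Without TGF-β1/M-MDSC replicate 1 the log2 fold change of Col1a1 was -0.26 with an adjusted p of 0.00598. With TGF-β1/G-MDSC supernatant Col1a1 was at 917, 904 and 869 FPKM, below all TGF-β1 libraries, and the test gave log2 fold change -0.23, SE 0.062, adjusted p = 0.0613. DESeq2 and a fit of only these groups put that difference of Col1a1 past the threshold (adjusted p of 0.0311 and 0.0237). Col1a2 passed in both comparisons, at 385, 353 and 358 FPKM (log2 fold change -0.18, SE 0.037, adjusted p = 0.0189) and 351, 355 and 367 FPKM (log2 fold change -0.21, SE 0.037, adjusted p = 0.00579). The Col1a2 call against the M-MDSC supernatant was lost when TGF-β1 replicate 1, 2 or 3 or TGF-β1/M-MDSC replicate 2 or 3 was left out, with adjusted p-values of 0.0578 to 0.0942, and under 4 of 12 other settings (0.05002 to 0.0954). Col3a1 was at 85.8, 83.98 and 81.3 FPKM and 90.3, 84.5 and 86.5 FPKM, with log2 fold changes of -0.21 (adjusted p = 0.00857) and -0.15 (adjusted p = 0.0372), and the M-MDSC call was lost in a fit of only the groups compared (adjusted p = 0.0623). The G-MDSC call of Col3a1 was lost without TGF-β1 replicate 1, 2 or 3 or TGF-β1/G-MDSC replicate 2 or 3 (adjusted p of 0.052 to 0.142) and under 8 of 12 other settings (0.0513 to 0.159).

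Col4a1 and Col4a2 fell together with both supernatants. Col4a1 was at 111, 102 and 99.7 FPKM and 95.9, 97.2 and 101 FPKM, with log2 fold changes of -0.26 (adjusted p = 0.018) and -0.35 (adjusted p = 0.0027). For Col4a2 they were -0.27 (adjusted p = 0.00568) and -0.34 (adjusted p = 0.00116), and its libraries lay at 67.8 to 73.3 FPKM and 65.8 to 68.6 FPKM, between those without treatment, 57.8 to 61.7 FPKM, and those with TGF-β1, 79.03 to 86.1 FPKM. The Col4a1 call against the M-MDSC supernatant was lost without TGF-β1 replicate 2 or TGF-β1/M-MDSC replicate 2 or 3 (adjusted p of 0.0632 to 0.0796). In a fit of only the groups compared the M-MDSC calls of both Col4a1 and Col4a2 were lost (adjusted p of 0.126 and 0.0569). Col11a1 and Col12a1 fell toward the level of MSCs without treatment. Col11a1 was at 1.55, 1.54 and 1.72 FPKM and 1.42, 1.44 and 1.58 FPKM, and Col12a1 at 17.9, 15.6 and 15.5 FPKM and 16.2, 15.6 and 19.9 FPKM. Both overlapped the libraries without treatment, and neither differed from them by the test (adjusted p of 0.138 and 0.634 for Col11a1, 0.184 and 0.0819 for Col12a1). Still, Col12a1 stayed 0.30 higher on the log2 scale with the G-MDSC supernatant, and DESeq2 called that difference (adjusted p = 0.0356). Without control replicate 1 edgeR called it too (0.024), and also Col11a1 with the M-MDSC supernatant (0.0493). Against TGF-β1 alone the log2 fold changes were -0.41 (adjusted p = 0.0233) and -0.53 (adjusted p = 0.00466) for Col11a1 and -0.56 (adjusted p = 0.0254) and -0.49 (adjusted p = 0.0451) for Col12a1. The M-MDSC calls of Col11a1 and Col12a1 were lost without TGF-β1 replicate 1 or 2 or TGF-β1/M-MDSC replicate 2, that of Col11a1 also without TGF-β1/M-MDSC replicate 1 and that of Col12a1 also without its replicate 3 (adjusted p of 0.0781 to 0.101). The G-MDSC call of Col12a1 was lost without TGF-β1 replicate 1 or 2 or TGF-β1/G-MDSC replicate 1 or 2 (adjusted p of 0.139 to 0.158) and under 7 of 12 other settings (0.0515 to 0.0918). The M-MDSC call of Col11a1 was lost under 4 of them (0.0544 to 0.0698).

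In the remaining 6 tested genes, no difference between either supernatant and TGF-β1 alone passed the test. Col7a1, the member with the largest rise, was at 11.7, 10.3 and 9.65 FPKM with TGF-β1/M-MDSC and at 10.8, 9.75 and 11.3 FPKM with TGF-β1/G-MDSC supernatant, several times the level without treatment in every library, with log2 fold changes against TGF-β1 of -0.21 (adjusted p = 0.2) and -0.20 (adjusted p = 0.197). Col27a1 was at 2.26, 2.02 and 1.77 FPKM and 2.38, 1.94 and 2.51 FPKM, overlapping TGF-β1 alone, with log2 fold changes of -0.03 (adjusted p = 0.953) and 0.15 (adjusted p = 0.659). The 2 genes that TGF-β1 lowered stayed low: Col4a5 was at 2.89, 3.15 and 3.08 FPKM and 2.32, 2.98 and 3.195 FPKM, and Col8a1 at 10.02, 9.52 and 10.5 FPKM and 8.89, 9.79 and 10.7 FPKM. Their log2 fold changes against TGF-β1 were -0.10 (adjusted p = 0.704) and -0.20 (adjusted p = 0.358) for Col4a5 and 0.07 (adjusted p = 0.714) and 0.03 (adjusted p = 0.891) for Col8a1. Col18a1 lay at 3.404 to 3.997 FPKM and 3.64 to 3.82 FPKM and Col16a1 at 19.5 to 21.1 FPKM and 19.5 to 20.9 FPKM, with adjusted p-values of 0.46 and 0.459 for Col18a1 and 0.398 and 0.293 for Col16a1.

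The 2 supernatants were then compared with each other. Of the 16 collagen genes 0 differed (edgeR), against 0.0999% of all genes tested that were higher and 0.025% that were lower with the M-MDSC supernatant. At an unadjusted p under 0.05 the count was also 0, against 6.33% of all genes. The rule of the study called 0 collagen genes and 0.549% of all genes. The log2 differences (M-MDSC minus G-MDSC) ran from -0.17 for Col27a1 to 0.13 for Col6a2. Their 95% intervals (8 residual degrees of freedom) were -0.09 to 0.20 for Col1a1, -0.14 to 0.03 for Col3a1, -0.12 to 0.09 for Col6a1 and -0.47 to 0.12 for Col27a1. The intervals rest on the SE and these 8 degrees of freedom alone. The edgeR test also draws on the spread of other genes, so the intervals do not mirror its p-values exactly. Upper limits were higher for some other genes, such as Col4a5 (-0.13 to 0.34), Col6a2 (-0.07 to 0.33) and Col11a1 (-0.08 to 0.32). A p that misses the threshold does not show that the supernatants acted alike, but the intervals bound, gene by gene, how far apart they could be.

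Against MSCs without treatment, 10 collagen genes were higher and 3 lower with TGF-β1/M-MDSC supernatant, beside 16.4% and 18.9% of all genes. With TGF-β1/G-MDSC supernatant 10 were higher and 4 lower, beside 16.4% and 18.4% of all genes. Without Col27a1, which passed the filter only through the groups with TGF-β1, 9 of 15 genes were higher in each. The rule of the study called 5 collagen genes in each of the 2 comparisons, Col3a1, Col6a3, Col7a1 and Col27a1 higher and Col4a5 lower, beside 6.98% and 6.8% of all genes, and the higher genes were 3 without Col27a1. Both comparisons share the libraries without treatment. The largest log2 fold changes were 2.75 and 2.75 for Col7a1. Col1a1 stayed raised, by 0.94 (adjusted p = 9.59e-07) and 0.88 (adjusted p = 1.63e-06), and Col3a1 by 1.39 and 1.45. Col6a2 was lower with the G-MDSC supernatant (log2 fold change -0.31, SE 0.086, adjusted p = 0.0176), a call that was lost without TGF-β1/G-MDSC replicate 2 (adjusted p = 0.067). The same gene did not pass with the M-MDSC supernatant (log2 fold change -0.18, SE 0.086, adjusted p = 0.136) but did so without its replicate 1 (adjusted p = 0.0165). Col16a1 was higher with both, by 0.20 (adjusted p = 0.0172) and 0.18 (adjusted p = 0.0283). These calls of Col16a1 were lost without control replicate 3 (adjusted p of 0.0615 and 0.101), the first also without TGF-β1/M-MDSC replicate 1 (0.0636) and the second without TGF-β1/G-MDSC replicate 3 (0.0989). Col11a1 passed against the M-MDSC group without control replicate 1 (adjusted p = 0.0493), as did Col12a1 against the G-MDSC group (adjusted p = 0.024), which DESeq2 also called (adjusted p = 0.0356). The G-MDSC call of Col16a1 was lost under 4 of 12 other settings (adjusted p of 0.0597 to 0.069), and the M-MDSC call under 1 of them, the fit of only the groups compared (0.0508).

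The proportions of some partner chains differed between groups. The ratio of Col1a1 to Col1a2 in FPKM was 1.83 ± 0.0722 (SD, n = 3) without treatment, 2.54 ± 0.0303 with TGF-β1, and 2.54 ± 0.134 and 2.51 ± 0.129 when M-MDSC or G-MDSC supernatant was added. The 9 libraries with TGF-β1 lay at 2.37 to 2.70 and did not overlap the 3 without, at 1.75 to 1.89. The level of the ratio depends on the length used. The length implied by counts, depth and FPKM was 1.115 times the bases of all annotated exons for both genes, so their ratio in FPKM rests on that exon length. It is 12426 bases for Col1a2, whose longest coding transcript has 5348, and 6563 bases for Col1a1, whose longest has 5930. Counts per base of those transcripts gave ratios of 0.873 without treatment and 1.21 with TGF-β1, and the relative shift is the same on both scales. The triple helix of collagen I holds 2 α1 chains and 1 α2 chain. The ratio of Col6a3 to Col6a1, chains that join in equal numbers, was 0.213 ± 0.0138 without treatment, 0.618 ± 0.0195 with TGF-β1, 0.623 ± 0.0365 with the M-MDSC and 0.586 ± 0.0368 with the G-MDSC supernatant. Col4a1 to Col4a2 moved less, from 1.32 ± 0.0342 to 1.48 ± 0.0712 with TGF-β1, again with no overlap, and Col6a1 to Col6a2 overlapped between those groups at 5.73 ± 0.126 and 5.24 ± 0.421. The level of this last ratio also depends on the length used, as counts per base of the longest coding transcripts gave 2.90 and 2.66.

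**Figure D4:**
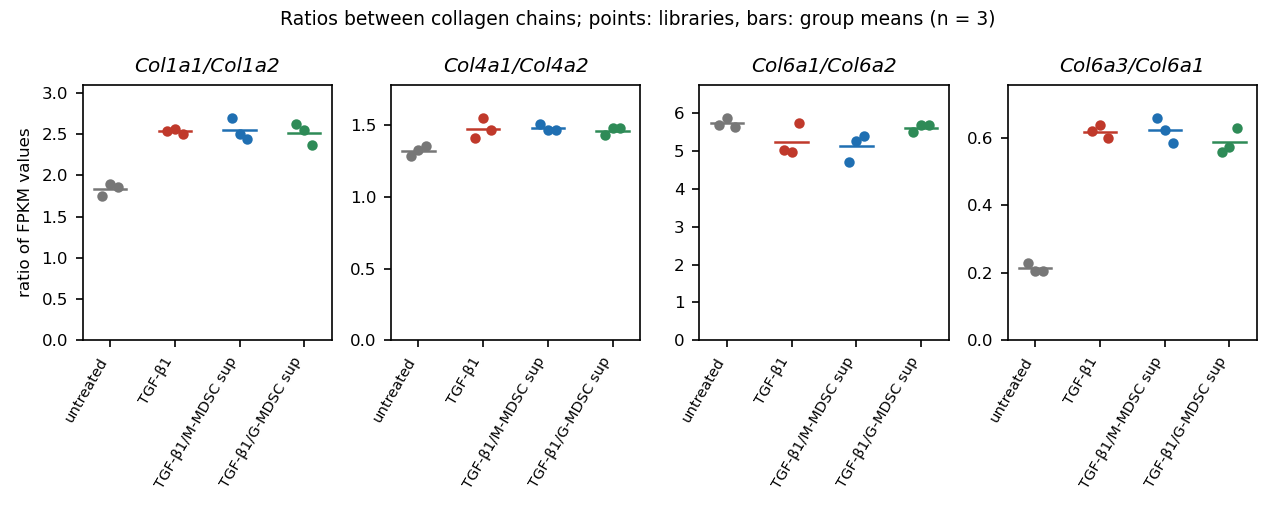
Ratio of FPKM between collagen chains in each library (points) with group means (bars, n = 3), from left to right Col1a1 to Col1a2, Col4a1 to Col4a2, Col6a1 to Col6a2 and Col6a3 to Col6a1. The first, the second and the last ratio are higher in all 9 libraries with TGF-β1 than in the 3 libraries without treatment.

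The 25 genes under the filter included all 4 transmembrane collagens and most FACIT genes. Col9a1, Col19a1 and Col22a1 had no count in any library, and Col13a1, Col15a1, Col6a5, Col6a6, Col25a1 and Col26a1 had at most 8 counts in every library. Their highest counts were 5 for Col13a1, 6 for Col15a1, 4 for Col6a6 and Col26a1, and 8 for Col6a5 and Col25a1. The highest count over the 12 libraries was 15 for Col9a2, 19 for Col2a1, the chain of cartilage collagen II, 25 for Col6a4 and 26 for Col4a6 and Col10a1. It was 30 for Col14a1, 45 for Col24a1, 50 for Col4a3, 52 for Col8a2, 54 for Col4a4 and 98 for Col9a3, a FACIT chain of cartilage. Each of these genes therefore stayed below 0.3 FPKM. Counts below about 12 are hard to read, because 44.3% of the values from 1 to 12 were 4, 8 or 12. A looser filter, edgeR's filterByExpr, kept 13 of the 25. With it 2 of these 13, Col17a1 and Col11a2, were higher and 1, Col23a1, was lower with TGF-β1. Beside them stood 11.4% and 13.2% of the 18761 genes it kept, so both counts were near the shares of all genes. Against MSCs without treatment this filter gave 13.4% of genes higher and 13.1% lower with the M-MDSC supernatant and 13.7% and 13% with the G-MDSC supernatant.

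Col23a1, a transmembrane collagen, was at 1.16, 0.997 and 0.986 FPKM without treatment and at 0.231, 0.2601 and 0.315 FPKM with TGF-β1, 0.363, 0.339 and 0.295 FPKM with TGF-β1/M-MDSC and 0.596, 0.314 and 0.372 FPKM with TGF-β1/G-MDSC supernatant. All 9 libraries with TGF-β1 lay below those without (log2 fold change -1.89, SE 0.23, adjusted p = 9.28e-05 for TGF-β1 alone). With the supernatants the log2 fold changes of Col23a1 against MSCs without treatment were -1.60 (adjusted p = 2.99e-04) and -1.25 (adjusted p = 0.00162). Col17a1, the transmembrane collagen of hemidesmosomes, had 42, 70 and 34 counts without treatment and 109, 148 and 130 counts with TGF-β1 (log2 fold change 1.46, SE 0.28, adjusted p = 0.00275), and it stayed higher with the M-MDSC (1.53 (adjusted p = 0.00204)) and the G-MDSC supernatant (1.31 (adjusted p = 0.00529)). Col11a2, a fibrillar chain of cartilage, had 97, 125 and 148 counts and 224, 200 and 161 counts (log2 fold change 0.71, SE 0.21, adjusted p = 0.0271). Col28a1, a collagen of peripheral nerve, was at 50, 41 and 45 counts without treatment, 40, 23 and 21 with TGF-β1, 11, 12 and 7 with TGF-β1/M-MDSC and 61, 67 and 27 with TGF-β1/G-MDSC supernatant. The M-MDSC group lay below the other 3 groups in every library, which passed against MSCs without treatment (log2 fold change -2.03, SE 0.45, adjusted p = 0.00598) but neither against TGF-β1 alone (log2 fold change -1.38, SE 0.45, adjusted p = 0.156) nor against the G-MDSC group (log2 fold change -2.23, SE 0.45, adjusted p = 0.182). Col24a1, a fibrillar chain, had 45, 25 and 34 counts without treatment and 0 to 11 in the 9 libraries with TGF-β1, which passed for the G-MDSC group (adjusted p = 0.0274) and not for TGF-β1 alone (adjusted p = 0.0766) or the M-MDSC group (adjusted p = 0.184). The supernatants did not differ in Col24a1 by the test (log2 fold change 2.26, SE 1.32, adjusted p = 0.95). Col24a1 met the looser filter only through the untreated group, where it was high. Col9a3 passed with the M-MDSC supernatant against MSCs without treatment, at 83, 84 and 80 against 61, 35 and 31 counts (log2 fold change 1.09, SE 0.34, adjusted p = 0.0355). With the G-MDSC supernatant its 55, 85 and 98 counts gave a near value that did not pass (log2 fold change 0.92, SE 0.34, adjusted p = 0.0687), and the supernatants did not differ in Col9a3 by the test (adjusted p = 1). Col4a3, which shares its upstream stretch with Col4a4, had 4, 0 and 9 counts without treatment and 16, 26 and 4 with TGF-β1, and was not called (log2 fold change 1.83, SE 0.96, adjusted p = 0.214), whereas 16, 25 and 50 counts with the M-MDSC supernatant passed against MSCs without treatment (adjusted p = 0.0493) and 22, 25 and 17 counts with the G-MDSC supernatant did not (adjusted p = 0.111). The supernatants did not differ in Col4a3 by the test (log2 fold change 0.61, SE 0.88). Its 50 counts were in TGF-β1/M-MDSC replicate 3, which also held the most RNA of the kidney gene Kap, at 69.2 FPKM. Whether these are linked was not tested. With so few counts without treatment, Col4a3 met the looser filter only through the groups that received TGF-β1. Col20a1, a FACIT gene with 179 to 363 counts, was at 0.446 to 0.506 FPKM and 0.396 to 0.5901 FPKM with the supernatants and at 0.626 to 0.724 FPKM with TGF-β1 alone, and neither difference passed (adjusted p of 0.176 and 0.149).

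**Figure D5:**
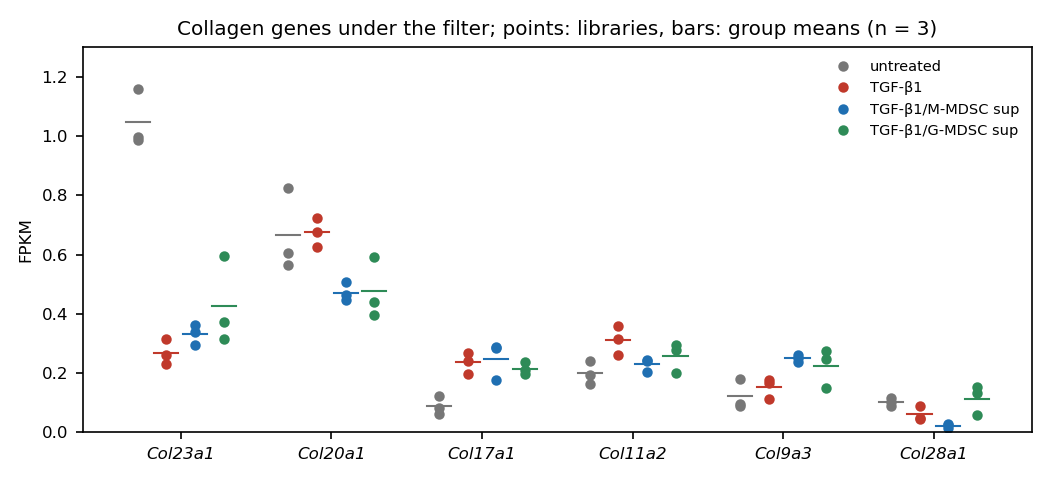
FPKM of 6 collagen genes under the filter in the 4 groups, with points for libraries and bars for group means (n = 3). Col23a1 lies at 0.986 to 1.16 FPKM without treatment and at 0.231 to 0.596 FPKM in the 9 libraries with TGF-β1.

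The enzymes and chaperones that make collagens were followed as a list of 30 genes, of which 26 passed the filter. With TGF-β1 15 of them were higher and 6 lower, against the same 16.1% and 17.9% of all genes, with a median log2 fold change of 0.24. Lox, the lysyl oxidase that starts cross-linking of collagen, and Loxl2, its relative, rose by 1.21 (adjusted p = 3.44e-09) and 1.24 (adjusted p = 7.55e-08). Bmp1, the protease that removes the C-propeptide of procollagen, rose by 1.39 (adjusted p = 2.84e-08). Its 2 enhancers moved in opposite directions, with Pcolce2 at a log2 fold change of 2.10 (adjusted p = 1.08e-08) and Pcolce at -1.13 (adjusted p = 1.74e-07). P3h2, a prolyl 3-hydroxylase, and Loxl4 fell by 0.79 (adjusted p = 2.65e-04) and 0.62 (adjusted p = 4.21e-05). With M-MDSC supernatant 6 of the 26 genes were lower than with TGF-β1 alone and 0 higher, against 1.95% and 2.83% of all genes. With G-MDSC supernatant 6 were lower and 0 higher, against 2.46% and 3.1% of all genes. Loxl2 was at -0.58 (adjusted p = 1.39e-04) and -0.67 (adjusted p = 4.32e-05) and Lox at -0.29 (adjusted p = 9.89e-04) and -0.27 (adjusted p = 0.00163) on the log2 scale. The other genes called were Adamts2 and P3h4 with both supernatants and Loxl1 and P4hb with the G-MDSC supernatant. P3h1, another prolyl 3-hydroxylase, and Pcolce2 were also lower with the M-MDSC supernatant, at -0.48 (adjusted p = 0.0308) and -0.34 (adjusted p = 0.0255). With the G-MDSC supernatant their values were close to these but did not pass, at -0.40 (adjusted p = 0.0613) and -0.28 (adjusted p = 0.0592). Between the supernatants 0 of the 26 genes differed, against 0.0999% of all genes higher and 0.025% lower, and neither P3h1 nor Pcolce2 did so (adjusted p of 0.973 and 0.968). Against MSCs without treatment 12 were higher and 5 lower with the M-MDSC supernatant, beside 16.4% and 18.9% of all genes, so the share of lower genes was near that of all genes. With the G-MDSC supernatant 11 were higher and 7 lower, beside 16.4% and 18.4%.

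Of 14 receptors and degrading enzymes of collagen, 7 passed the filter. With TGF-β1 4 were higher, namely Itga11, Itgb1, Mmp9 and Mmp14, and 1, the endocytic receptor Mrc2, was lower, against 16.1% and 17.9% of all genes. Mmp9, at 0.153, 0.169 and 0.321 FPKM without treatment and 1.21, 1.16 and 1.03 FPKM with TGF-β1, passed the filter only through the groups that received TGF-β1, so its place among the higher genes was partly set by the filter. Mmp9 had a log2 fold change of 2.43 (adjusted p = 2.44e-05), and Itgb1, the common β chain of collagen-binding integrins, one of 0.66 (adjusted p = 8.39e-08). Itga11, an integrin chain that binds fibrillar collagen, rose by 1.16 (adjusted p = 1.15e-06) and was lower with the M-MDSC and the G-MDSC supernatant than with TGF-β1 alone, at -0.73 (adjusted p = 2.49e-04) and -0.86 (adjusted p = 6.74e-05). Mmp9, a gelatinase, was the 1 gene of this list that was higher with a supernatant than with TGF-β1 alone (log2 fold change 1.01, SE 0.23, adjusted p = 0.0306 for the G-MDSC supernatant). The counts against MSCs without treatment, Mmp9 included, were 4 higher and 2 lower with each supernatant, beside 16.4% of all genes higher with either and 18.9% and 18.4% lower with M-MDSC and G-MDSC supernatant. Between the supernatants 0 of the 7 genes differed, beside 0.0999% and 0.025% of all genes.

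All 8 MSC markers had counts in all groups, and their sums were 500 to 598 FPKM over the 12 libraries, but the markers did not move alike. Ly6a, which encodes the surface antigen Sca-1, was at 241, 243 and 251 FPKM without treatment and at 16.7, 12.99 and 18.8 FPKM with TGF-β1, and at 82.6, 92.1 and 103 FPKM and 63.3, 68.4 and 69.2 FPKM with the M-MDSC and the G-MDSC supernatant. Pdgfra and Thy1 were also lower in every TGF-β1 library, at 4.58 to 5.33 FPKM against 13.2 to 15.5 FPKM and at 2.03 to 2.42 FPKM against 3.94 to 5.27 FPKM, whereas Itgb1 was at 381 to 388 FPKM against 247 to 263 FPKM. The part of these shifts in the collagen values was not tested. Of Kit and Pecam1, surface antigens used to type these cells, Kit was at 0 in the groups without supernatant and had counts with either supernatant. Pecam1 had counts in all 4 groups, and the sum of both was 0.067 to 0.218 FPKM over the 12 libraries. The 3 endothelial markers summed to 0.199 to 0.41 FPKM. Of 12 myeloid markers 6 had a count without treatment, 7 with TGF-β1, 9 with the M-MDSC and 10 with the G-MDSC supernatant, with sums of 25.3 to 26.3, 13.6 to 15.7, 20.3 to 25.9 and 25.7 to 29.5 FPKM, and Mpo and Elane were at 0 throughout. Cd14 supplied most of these sums. Lyz2, the lysozyme of myeloid cells, was at 0 to 0.191 FPKM in the 6 libraries without supernatant, and at 1.68, 0.651 and 2.29 FPKM with TGF-β1/M-MDSC and 2.11, 1.94 and 1.56 FPKM with TGF-β1/G-MDSC supernatant. Of 12 kidney markers 4, 7, 12 and 12 had a count in the same order, with sums of 30.2 to 35.9, 5.53 to 9.59, 16.5 to 89.6 and 53.4 to 67.4 FPKM. Aqp1 alone supplied 28.9 to 30.4 FPKM of the sum without treatment and 4.15 to 4.31 FPKM with TGF-β1. Kap, an abundant RNA of the proximal tubule, was at 0 in the 6 libraries without supernatant, at 13.1, 9.20 and 69.2 FPKM with TGF-β1/M-MDSC and at 37.1, 51.2 and 47.3 FPKM with TGF-β1/G-MDSC supernatant. The part of these RNAs in the lower collagen values was not tested. In the order of the 3 TGF-β1/M-MDSC replicates Col1a1 was at 1039, 881 and 873 FPKM and Col6a3 at 28.9, 25.7 and 23.8 FPKM. Both were highest in replicate 1, whereas Kap was lowest in replicate 2 and highest in replicate 3. Some collagen genes had another order: Col11a1 was at 1.55, 1.54 and 1.72 FPKM and Col8a1 at 10.02, 9.52 and 10.5 FPKM, both highest in replicate 3. The 5 cartilage markers summed to 1.69 to 1.99 FPKM without treatment, 2.52 to 3.01 with TGF-β1, 2.65 to 3.56 with the M-MDSC and 3.001 to 3.25 with the G-MDSC supernatant, with Matn1 at 0 in every library. Among them Acan, which encodes aggrecan, was at 0.0854 to 0.181 FPKM without treatment and at 0.716 to 0.898 FPKM with TGF-β1. The 3 adipocyte markers summed to at most 0.415 FPKM, with Adipoq at 0 in every library and Fabp4 at 0.249 to 0.406 FPKM without treatment and 0.0262 to 0.0735 FPKM with TGF-β1. The part of these RNAs in the collagen values was not tested.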

How the data were processed

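Poly(A) RNA of the 12 libraries was sequenced in pairs of reads by the authors, with fastp for read quality, HISAT2 for alignment to GRCm38, StringTie for assembly and gffcompare to merge the transcripts. The submitters' processing notes name cutadapt 1.9, HISAT2 2.0.4 and StringTie 1.3.4d. The deposited table holds raw counts per gene and library and the FPKM that the authors calculated from them, with 0.0001 in place of 0. The counting tool and its strand setting were not given in the sources used here. Here the counts of 12016 genes with at least 1 FPKM in at least 3 libraries were scaled with TMM factors (trimmed mean of M-values) and tested by edgeR 4.0.16 under R 4.3.3 (quasi-likelihood F test, two-sided, 4 groups in a single fit, Benjamini-Hochberg adjustment over all genes tested, threshold 0.05). SE is the log2 fold change divided by the root of F. The test was first run on simulated data. Library depth was 73977669 to 84565450 counts, and precision is given by the spread between the 3 libraries of a group. All collagen genes were named, and in the lists of 30 synthesis and 14 receptor or degradation genes at most the 3 called genes with the largest change in each direction for TGF-β1 against no treatment and for M-MDSC supernatant against TGF-β1. Lox, Mmp14, the other genes called with a supernatant and the G-MDSC values of listed genes were added after their values were seen. The members and the lists were chosen with earlier results of these data known. Gene positions are those of the table (GRCm38), exons those of GENCODE M21, and upstream stretches those of RefSeq (GRCm38.p6), which had one for 14 of the 16 tested genes and 33 of all 41. Alternatives covered scaling, filters, DESeq2 1.42.0, limma 3.58.1 on log2(FPKM + 1) or log2(FPKM + 0.1), counts divided by 4, a block for the replicate number, fits of only the groups compared, the calling rule of the study, and the omission of each library. Python 3.11.15 with pandas 2.3.3 handled the tables.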

Additional observations from a re-analysis of the deposited data

How the results depend on the processing

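Numbers of collagen genes called, of 16 tested, moved by more than 1.5 times under 2 alternatives besides the omission of a library. The rule of the study gave 7 for TGF-β1 against MSCs without treatment (15 by adjusted p), 0 for each supernatant against TGF-β1 alone (9 and 9), and 5 for each supernatant against MSCs without treatment (13 and 14). A fit of only the groups compared gave 3 for the M-MDSC supernatant against TGF-β1 alone, namely Col6a1, Col6a3 and Col12a1. Leaving out 1 library at a time gave 14 to 15 calls for TGF-β1, 4 to 9 for the M-MDSC and 7 to 8 for the G-MDSC supernatant against TGF-β1 alone, 0 to 0 between the supernatants, and 12 to 14 and 13 to 15 for the M-MDSC and the G-MDSC supernatant against MSCs without treatment. The counts of 4 and 5 came without TGF-β1 replicate 2, TGF-β1/M-MDSC replicate 2, TGF-β1 replicate 1 and TGF-β1/M-MDSC replicate 3. The replicate numbers were not shown to pair the libraries. Across groups, the deviations of same-numbered libraries from their group means correlated at -0.0038 on average (18 pairs), against 0.002 for different numbers (36 pairs), and the number was left out of the fit. With the number as a replicate block the counts were 15, 7, 8, 0, 13 and 14 in the order TGF-β1, M-MDSC and G-MDSC supernatant against TGF-β1 alone, the supernatants against each other, and each against MSCs without treatment. Among all values of single genes, 1697 kept their direction and side of the threshold, 120 lost the call, 7 gained it and 0 turned. Some of the lost calls come from the rule of the study, whose 2-fold limit drops smaller changes by definition. An omission leaves fewer libraries, and the cause of the other changes was not tested.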
